A study of Mus musculus with 6 samples.

Results

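The genes described are 9 genes of macrophage states in the foreign body reaction, chosen by name and matched to the gene symbols of the deposited read count table, which holds 48440 genes. All 9 were found. Of these, 6 mark the lipid-associated state (Trem2, Gpnmb, Lgals3, Fabp5, Cd9 and Apoe) and 3 are used as marks of polarization (Chil3 and Retnla for alternative activation, Nos2 for classical activation). Macrophages gather around an implanted material, clear debris and may fuse into giant cells. Those that take up much lipid switch on the receptor TREM2, which binds lipids and lipoproteins, together with genes of lipid transport, lysosomes and adhesion. Interleukin-4 and interleukin-13 drive the alternative program through the receptor chain Il4ra and the transcription factor STAT6, whereas interferon gamma and microbial products drive the classical program, in which the enzyme made by Nos2 forms nitric oxide from arginine.

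The tissue was murine tissue entangled with cartilage engineered from rabbit bone marrow mesenchymal stem cells (BEC), which had been wrapped in a nanofibrous membrane of PCL and collagen and placed under the skin of male BALB/c nude mice. The membrane held no axitinib in the 0%-Axitinib group (3 samples) and 3% axitinib by mass, an inhibitor of VEGF receptors, in the 3%-Axitinib group (3 samples), and the tissue of all 6 samples was collected at week 12. Controls are labelled untreated and were read here as the 0%-Axitinib group, since the deposited protocol has membranes with 0% or 3% of the drug. Nude mice lack a thymus and are short of mature T cells. A pair of constructs of the same group was implanted per mouse but no label says from which mouse a sample came, so n counts samples that may share an animal, and p-values measure only the spread between these samples. The comparison asks how the membrane with the drug differed from the membrane without it in these macrophage genes.

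The libraries held from 9225518 to 18403795 reads assigned to genes, and a gene with 3 counts had from 0.157 to 0.330 CPM (TMM-scaled counts relative to library size). Several libraries stood apart. In 0%-Axitinib replicate 3, the 11 neutrophil markers summed to 36950 CPM, against 83.8 and 93.4 CPM in 0%-Axitinib replicates 1 and 2 and 195, 148 and 74.5 CPM in 3%-Axitinib replicates 1, 2 and 3. The most abundant of them was S100a9, with 10660 CPM in that library and at most 43.2 CPM elsewhere. The granule gene Elane had no read in 0%-Axitinib replicate 2, and the surface marker Ly6g had none there or in 3%-Axitinib replicate 3. The 6 eosinophil markers also peaked in 0%-Axitinib replicate 3, at 559 CPM, and lay between 2.61 and 8.98 CPM in the other samples, with Prg2 the most abundant. In 0%-Axitinib replicate 2, the 8 keratinocyte markers summed to 943 CPM, of which Krt1 gave 273 CPM, and in no other sample did they exceed 11.9 CPM. The 10 skeletal muscle markers, led by Acta1, reached 12192 CPM in 3%-Axitinib replicate 1 and 6781 in replicate 3, against 15.5 CPM in replicate 2 of that group and at most 122 CPM in the 0%-Axitinib samples. No marker of these 4 lists was without reads in all 6 samples. Unmapped reads made up 5.47%, 3.84% and 14.9% of 0%-Axitinib replicates 1, 2 and 3 and 48.4%, 29.2% and 16.8% of 3%-Axitinib replicates 1, 2 and 3. This share separated the groups, so it and the drug cannot be told apart. The part of these libraries and of the unmapped share in the results was not tested.

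None of the 9 genes met the criterion, as higher or as lower, with all 6 samples in edgeR's quasi-likelihood fit. The study asks for at least 1.5-fold and a p of at most 0.05, taken here as the unadjusted p. Retnla met it as lower with DESeq2's Wald test and with no filter on low counts (log2 fold change -1.71 in both), and with the replicate number as a block (-1.95). Of the 15257 tested genes, 9.54% met it as higher and 11.7% as lower in the 3%-Axitinib group. The groups of all 9 genes overlapped, whereas 14.7% of all tested genes had the 3%-Axitinib samples all above those of the 0%-Axitinib group and 16.6% had them all below. Adjusted p in edgeR's quasi-likelihood fit (Benjamini-Hochberg, all tested genes) reached 0.05 or less for 0 of the 9, as against 0.00655% of tested genes. The unadjusted p of that fit was at most 0.05 for 0 of the 9, as against 3585 of the 15257 tested genes. limma-voom also gave 0 of the 9, and 0.0131% of tested genes, an adjusted p of at most 0.05. DESeq2's Wald test gave 0 of 8 (Chil3 had no p there), where 10.9% of the 16103 genes with an adjusted p reached it. Of the 23 program genes with a call that are named by rule, edgeR with all samples and limma-voom gave 0 an adjusted p of at most 0.05, DESeq2 gave 12 (Apod, Cd209a, Cd36, Cxcl9, Fabp3, Fabp4, Ifngr2, Il4ra, Irf1, Mgl2, Pparg and Socs3) and edgeR without 0%-Axitinib replicate 3 gave 6 (Apod, Cd36, Fabp4, Irf1, Mgl2 and Pparg), where 7.98% of all tested genes reached it. For edgeR without 3%-Axitinib replicate 2 the number was 1 (Fabp3), where 0.364% of all tested genes reached it. The 23 genes were named for meeting the criterion, so their counts are a description and are no sample of all genes. With 3 samples a group, these counts do not show that the genes are alike in both groups. The log2 fold change between groups (log2FC, 3%-Axitinib minus 0%-Axitinib) had a median over the 9 genes of -0.24, beside -0.03 over all tested genes. Its sign was not stable, with 0.19 without 0%-Axitinib replicate 2 or 3%-Axitinib replicate 2 and -0.35 without 3%-Axitinib replicate 3. With libraries scaled by total counts alone, the median of all genes shifted to -0.16, and the genes meeting the criterion numbered 989 higher and 2448 lower in place of 1456 and 1785. Without 0%-Axitinib replicate 3, Chil3 met the criterion as higher, with a log2FC of 3.88. Without 0%-Axitinib replicate 2 or without 3%-Axitinib replicate 3, Retnla met it as lower, with -2.09 and -2.86.

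**Figure D1:**
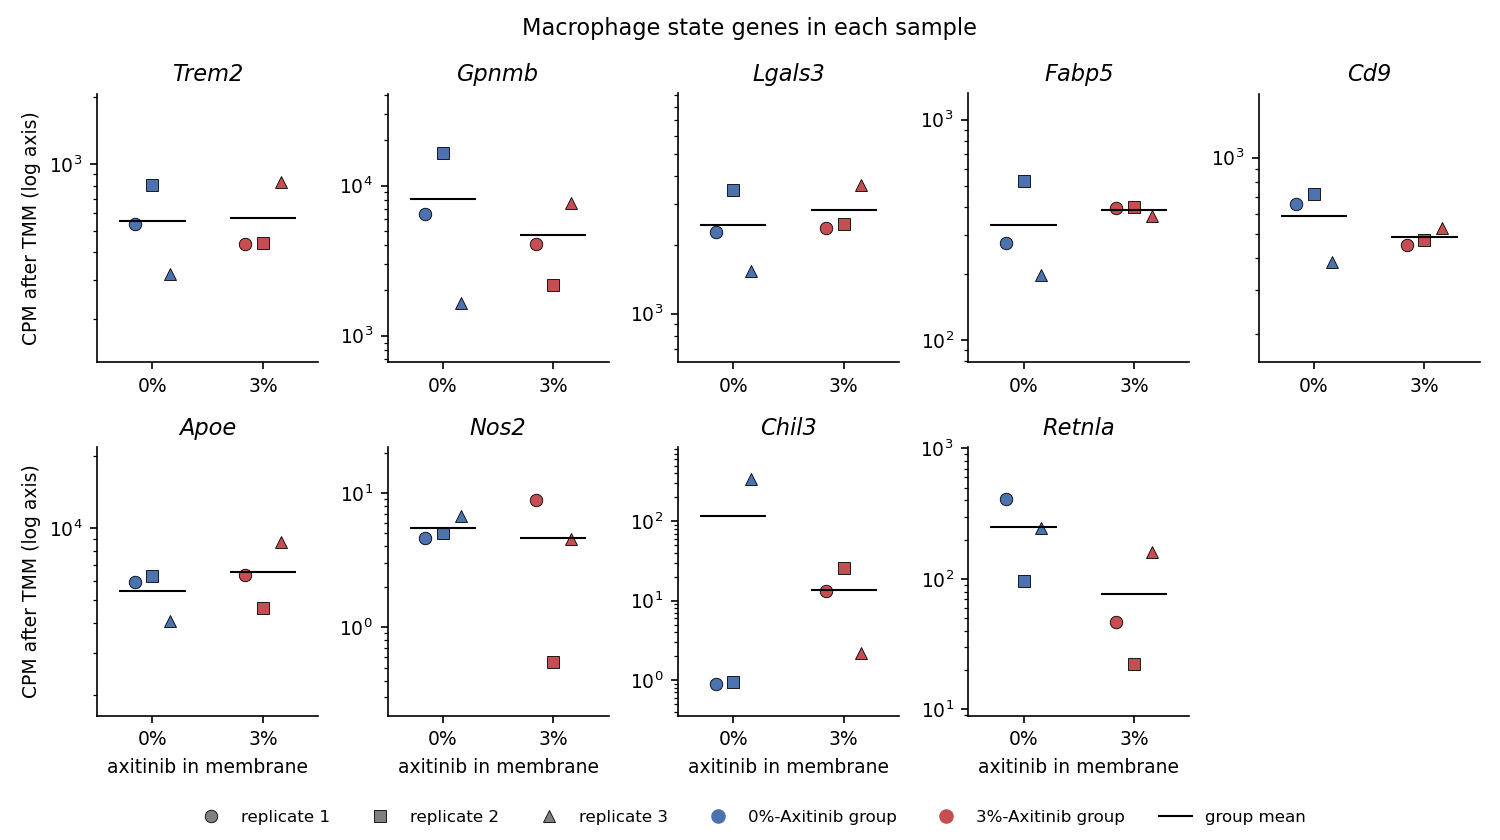
Expression of the 9 genes in each sample, as CPM after TMM normalization on log axes (1 panel per gene), by the axitinib content of the membrane; symbols give the replicate, colours the group and lines the group mean. In every panel the groups overlap, and Chil3 is spread from 0.887 to 343 CPM within the 0%-Axitinib group.

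Per kilobase of exon, the 9 genes differed widely in level. Values of single samples are listed in the order of replicates 1, 2 and 3 of each group. Over the 6 samples, Apoe had the highest mean level, 2806 ± 761 CPM per kb (SD, n = 6), followed by Lgals3 at 1417 ± 432 and Gpnmb at 987 ± 835 CPM per kb. Apoe lay above Lgals3 in 6 of 6 samples, and Lgals3 above Gpnmb in 5 of 6. Retnla came next at 273 ± 242 CPM per kb, close to Cd9 at 262 ± 61.9 CPM per kb, which it exceeded in 3 of 6 samples. Trem2 (114 ± 42.7 CPM per kb) and Fabp5 (101 ± 31.7 CPM per kb) did not differ beyond their spread, with Trem2 the higher in 4 of 6 samples. Cd9 lay above Trem2 in all 6 samples on this scale. The order depends on the exon length used, 4946 bases for Trem2 and 2044 for Cd9. Without division by length, the mean was 562 CPM for Trem2 and 535 CPM for Cd9. The mean of Chil3 (39.4 ± 83.9 CPM per kb) was set by a single sample, and Chil3 exceeded Nos2 in 4 of 6. Nos2 was the lowest at 1.14 ± 0.622 CPM per kb. Together the 9 genes took 1.79%, 2.91% and 0.897% of all gene counts in the 0%-Axitinib samples and 1.40%, 1.00% and 2.06% in the 3%-Axitinib samples.

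The 17 macrophage markers, the source most closely tied to these genes, were all detected. Their sum was 12182, 12773 and 9148 CPM in the 0%-Axitinib samples against 9009, 11275 and 17653 in the 3%-Axitinib samples, with Lyz2 the most abundant in the list. The groups overlapped, and the sums did not differ beyond their spread (exact two-sided permutation test, p = 0.9, where 0.1 is the smallest p that 3 samples against 3 allow). Lyz2 alone was at 7035, 7521 and 5859 CPM in the 0%-Axitinib samples and at 5168, 6513 and 12006 CPM in the 3%-Axitinib samples. It thus gave the larger part of the sum in every sample, and the part of other cells in Lyz2 was not tested. Of the 17 markers, 0 were higher and 2 lower by the criterion (Cx3cr1 and Timd4), and their median log2FC was -0.12. Timd4 did not meet it without 0%-Axitinib replicate 1 or 3 or 3%-Axitinib replicate 2, while Cx3cr1 did with each sample left out. The median had no stable sign, at -0.33 without 0%-Axitinib replicate 3, 0.01 without replicate 1 of that group and 0.06 with limma-voom. The 9 markers of osteoclasts and fused giant cells summed to 5969, 7283 and 7365 CPM in the 0%-Axitinib samples and to 3963, 8830 and 6030 CPM in the 3%-Axitinib samples, and Ctsk, the most abundant, is also a lysosomal protease of macrophages. Of these, 1 was lower (Itgb3, log2FC -1.42), and their groups overlapped in sum. Itgb3 was highest in 0%-Axitinib replicate 3, had a log2FC of -0.69 without it, and did not meet the criterion there or with 3%-Axitinib replicate 1 or 3 left out. The lower markers of this list numbered 3 with total counts, with no filter and with the DESeq2 Wald test. In bulk tissue, fewer macrophages and less RNA of a gene per macrophage cannot be told apart.

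Trem2 (chromosome 17 of GRCm38, 48346401 to 48354147) encodes the lipid-sensing receptor of the program. Its expression was 537, 805 and 320 CPM in the 0%-Axitinib samples against 436, 439 and 834 in the 3%-Axitinib samples. The highest and the second highest sample came from different groups, and the groups overlapped. Between groups, log2FC was 0.04 (standard error, SE, 0.43; adjusted p = 0.962, edgeR). It was -0.0936 with total counts. Leaving out 3%-Axitinib replicate 3 gave -0.35, leaving out 0%-Axitinib replicate 3 gave -0.24 and leaving out 0%-Axitinib replicate 2 gave 0.41, so no direction can be given.

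The RNA of the TREM family and of its signalling was examined with a list of 9 genes, of which 8 passed the filter on low counts. By the criterion, 0 were higher and 3 lower (Treml2, Plcg2 and Syk), with a median log2FC of -0.85 that was -0.47 without 0%-Axitinib replicate 3, the library with the neutrophil markers. Tyrobp, the adaptor that carries the TREM2 signal, was measured at 289, 398 and 395 CPM in the 0%-Axitinib samples and at 213, 329 and 363 CPM in the 3%-Axitinib samples, a log2FC of -0.26 (SE 0.29) with overlapping groups. Syk, the kinase recruited by Tyrobp, had 303, 466 and 240 CPM without and 190, 144 and 240 CPM with the drug. Its log2FC was -0.81 (SE 0.33, adjusted p = 0.199, edgeR), and 0%-Axitinib replicate 3 was just below the highest 3%-Axitinib sample. Leaving out any 1 of 0%-Axitinib replicates 1 and 2 and 3%-Axitinib replicates 1 and 2 took Syk out of the criterion, with values up to -0.51. The phospholipase gene Plcg2, downstream of Syk, had a log2FC of -0.88 (SE 0.31, adjusted p = 0.159), and its groups did not overlap. It was -0.50 without 0%-Axitinib replicate 3, which like 3%-Axitinib replicates 1 and 2 was needed for the criterion. Treml2 was at 72.7 CPM in 0%-Axitinib replicate 3 and between 0.992 and 2.86 CPM elsewhere, and its log2FC of -4.17 was -0.44 without that library. The number of lower genes in this list was 1 without 0%-Axitinib replicate 3, 0 without 3%-Axitinib replicate 1 or 2, and 5 without 0%-Axitinib replicate 2. With all samples, 7 of 8 dendritic cell markers and 1 of 6 general leukocyte markers (Ptprc) were also lower. The part of these cells in the list was not tested.

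Apoe (chromosome 7, 19696109 to 19699188) encodes the apolipoprotein that TREM2 can bind and that carries cholesterol out of foam cells. It was measured at 5925, 6294 and 4081 CPM in the 0%-Axitinib samples and at 6338, 4630 and 8733 CPM in the 3%-Axitinib samples. The highest sample, 3%-Axitinib replicate 3, was also the highest for the macrophage markers, and the groups overlapped. Apoe had a log2FC of 0.27 (SE 0.41, adjusted p = 0.712, edgeR), which was 0.00817 without 3%-Axitinib replicate 3. Without 3%-Axitinib replicate 2 it was 0.47 and the groups did not overlap, but the criterion was not met.

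Fabp5 (chromosome 3, 10012548 to 10016607), an intracellular carrier of fatty acids that epidermis also makes, was measured at 277, 526 and 198 CPM in the 0%-Axitinib samples and at 399, 401 and 364 CPM in the 3%-Axitinib samples. The 3%-Axitinib samples lay close together, between the values of the 0%-Axitinib samples. Fabp5 had a log2FC of 0.22 (SE 0.38, adjusted p = 0.752, edgeR). The highest sample was the library with the keratinocyte markers, and without it the groups did not overlap, with a log2FC of 0.70 that did not meet the criterion. The part of keratinocytes was not tested. Without 0%-Axitinib replicate 3, the value was -0.0515.

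Gpnmb (chromosome 6, 49036546 to 49070929) encodes a transmembrane glycoprotein of lysosome-rich macrophages that osteoclasts and pigment cells also make. It showed the widest spread of the 6 lipid-associated genes, with 6473, 16437 and 1663 CPM in the 0%-Axitinib samples against 4098, 2192 and 7703 in the 3%-Axitinib samples. In 0%-Axitinib replicate 2 it took 1.69% of all gene counts and ranked 1 among all genes, whereas in 0%-Axitinib replicate 3 it held 0.170% and ranked 43. The values of the 3%-Axitinib group all lay between those extremes. With all samples, log2FC was -0.81 (SE 0.85, adjusted p = 0.581, edgeR). Without 0%-Axitinib replicate 2 it was 0.19. Dropping replicate 3 of either group gave -1.30 (0%-Axitinib) or -1.39 (3%-Axitinib). Pmel, its relative of pigment cells, was at 1.28 CPM in 0%-Axitinib replicate 2 and at most 3.74 CPM in any sample.

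Lgals3 (chromosome 14, 47367751 to 47386160) encodes galectin-3, a lectin that binds sugars on glycoproteins. It was measured at 2281, 3482 and 1532 CPM in the 0%-Axitinib samples and at 2368, 2473 and 3664 CPM in the 3%-Axitinib samples. A single 0%-Axitinib sample, replicate 2, exceeded the lowest 3%-Axitinib sample. Its log2FC was 0.22 (SE 0.42, adjusted p = 0.772, edgeR), 0.57 without that sample and -0.0263 without 0%-Axitinib replicate 3. Cd9 (chromosome 6, 125460266 to 125494791), a tetraspanin that takes part in macrophage adhesion and fusion, had 656, 716 and 388 CPM in the 0%-Axitinib samples against 451, 473 and 525 in the 3%-Axitinib samples. Here 0%-Axitinib replicate 3 was the lowest sample of all and the other 0%-Axitinib samples were the highest. For Cd9, log2FC was -0.28 (SE 0.30, adjusted p = 0.592, edgeR), and -0.51 without 0%-Axitinib replicate 3, where the groups no longer overlapped but the fold stayed under the criterion. Cd9 overlaps 2 transcripts on the other strand, Gm28809 and Gm26728, and whether reads were counted by strand is not given in the sources used here.

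The lipid-associated genes were positively correlated with each other across the samples. Over the 6 samples, Pearson's r of log2 CPM between pairs of the 6 genes ranged from 0.472 (Cd9 and Apoe) to 0.953 (Trem2 and Lgals3), with a median of 0.764 over 15 pairs. The samples share their libraries in all pairs, so these values are a description. They are not set beside other pairs of genes, nor given without 0%-Axitinib replicate 3, the library with the neutrophil markers. 0%-Axitinib replicate 3 was the lowest sample for all 6 genes. The highest was 0%-Axitinib replicate 2 for Gpnmb, Fabp5 and Cd9 and 3%-Axitinib replicate 3 for Trem2, Lgals3 and Apoe. Relative to the summed macrophage markers of the same sample, Trem2 was at 4.40%, 6.30% and 3.49% in the 0%-Axitinib samples and at 4.84%, 3.90% and 4.72% in the 3%-Axitinib samples, and the groups of all 6 genes overlapped on this scale too. Lyz2 gave the larger part of that sum in every sample.

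A further 22 genes of the lipid-associated program were measured, and all were tested. By the criterion, 2 were higher (Spp1 and Lgals1) and 3 lower (Cd36, Fabp4 and Soat1) in the 3%-Axitinib group, with a median log2FC of -0.38. Spp1, which encodes the secreted matrix protein osteopontin, was at 1053, 1265 and 1240 CPM in the 0%-Axitinib samples and at 1620, 5575 and 1657 CPM in the 3%-Axitinib samples. All 3%-Axitinib samples were above, and replicate 2 far above, the 0%-Axitinib samples. Its log2FC was 1.31 (SE 0.55, adjusted p = 0.210, edgeR) and 0.47 without 3%-Axitinib replicate 2. Of the fits with a sample left out, it met the criterion in those without 3%-Axitinib replicate 1 or 3.

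Cd36, a scavenger receptor for oxidized lipoproteins and fatty acids, was at 1392, 3367 and 469 CPM in the 0%-Axitinib samples and at 443, 409 and 711 CPM in the 3%-Axitinib samples. The lowest 0%-Axitinib sample, replicate 3, lay within the 3%-Axitinib range. Cd36 had a log2FC of -1.74 (SE 0.69, adjusted p = 0.190, edgeR), -2.19 without that sample and -0.84 without 0%-Axitinib replicate 2, and of the 6 fits with a sample left out only that without 0%-Axitinib replicate 3 met the criterion. Fabp4, a fatty acid carrier of macrophages, adipocytes and capillary endothelium, was at 547, 536 and 736 CPM in the 0%-Axitinib samples and at 246, 285 and 252 CPM in the 3%-Axitinib samples. Its groups did not overlap, and its log2FC was -1.22 (SE 0.25, adjusted p = 0.0965, edgeR), with an adjusted p of 0.000121 in DESeq2's Wald test. It met the criterion whichever 1 of the 6 samples was left out. The endothelial cell markers, led by Pecam1, summed to 684, 447 and 824 CPM in the 0%-Axitinib samples and to 142, 217 and 256 CPM in the 3%-Axitinib samples, and the adipocyte markers to 276, 253 and 310 CPM and to 267, 57.3 and 117 CPM. The part of these cells in Fabp4 and Cd36 was not tested. Soat1, which esterifies cholesterol for storage, had a log2FC of -0.90 (SE 0.34, adjusted p = 0.178) and Lgals1, which encodes galectin-1, of 0.86 (SE 0.31, adjusted p = 0.167), both with groups that did not overlap. Each lost the criterion in 4 of the 6 fits with a sample left out, 0%-Axitinib replicate 2 and 3%-Axitinib replicates 2 and 3 being needed by both; without 0%-Axitinib replicate 2 the value of Soat1 was -0.49.

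The counts of this list depended on the samples and on the method. The DESeq2 Wald test gave 6 lower genes, the fit with no filter 5 and limma-voom 2, and with total counts 0 were higher. Without 0%-Axitinib replicate 3, 10 of the 22 genes were lower (Lpl, Lipa, Cd36, Plin2, Fabp4, Itgax, Abca1, Abcg1, Soat1 and Mitf) and 1 higher (Lgals1), with a median log2FC of -0.60, where 13.7% of all tested genes were lower and 14.5% higher. In that fit, Lipa, the lysosomal acid lipase, had a log2FC of -1.78 (SE 0.39, adjusted p = 0.0495), Abcg1, a cholesterol exporter, of -1.57 (SE 0.39, adjusted p = 0.0575) and Lpl, which releases fatty acids from lipoproteins, of -1.30 (SE 0.40, adjusted p = 0.0841). Abca1, the other exporter, had -1.08 (SE 0.29, adjusted p = 0.0633). Of the 6 lipid-associated genes named at the outset, 0 met the criterion in that fit. When any other sample was left out, the number of lower genes was 1 or 2 and that of higher genes between 0 and 2. Lipa was at 816, 1494 and 226 CPM in the 0%-Axitinib samples and at 259, 269 and 484 CPM in the 3%-Axitinib samples, so that 0%-Axitinib replicate 3 was the lowest and 0%-Axitinib replicates 1 and 2 the highest of all samples. Cell markers were also lower in the fit without 0%-Axitinib replicate 3. They were 7 of 8 dendritic cell markers, 2 of 17 macrophage markers (Adgre1, log2FC -1.35, and Cx3cr1) and 2 of 6 general leukocyte markers (Ptprc, log2FC -1.71, and Cd53). The part of these cells in the list was not tested.

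Retnla (chromosome 16, 48842551 to 48844461) encodes a secreted resistin-like protein of alternatively activated macrophages. It was at 410, 96.0 and 244 CPM in the 0%-Axitinib samples and at 47.1, 22.3 and 161 CPM in the 3%-Axitinib samples. The lowest 0%-Axitinib sample was below the highest 3%-Axitinib sample, so that the groups overlapped by a single sample on each side. On average, Retnla was at 250 ± 157 CPM without and 77.0 ± 74.2 CPM with the drug (± SD, n = 3 each). Retnla had a log2FC of -1.70 (SE 0.80, adjusted p = 0.252, edgeR), and the unadjusted p of 0.0728 missed the criterion. Retnla met it with a log2FC of -2.09 without 0%-Axitinib replicate 2 and of -2.86 without 3%-Axitinib replicate 3, both of which separated the groups, and of -1.71 with DESeq2's Wald test (adjusted p = 0.0993, between 0.0993 and 0.496 over its alternatives). The criterion was also met with no filter (-1.71) and with the replicate number as a block (-1.95). Without 0%-Axitinib replicate 1 the value was -1.14. Relative to the summed macrophage markers, of which Lyz2 gave the larger part, Retnla was at 3.36%, 0.752% and 2.67% in the 0%-Axitinib samples and at 0.522%, 0.198% and 0.915% in the 3%-Axitinib samples, again with overlapping groups.

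Chil3 (chromosome 3, 106147554 to 106167564) encodes a chitinase-like lectin that alternatively activated macrophages and also neutrophils and their precursors make. It was at 0.887, 0.933 and 343 CPM in the 0%-Axitinib samples and at 13.2, 25.5 and 2.20 CPM in the 3%-Axitinib samples, from 17, 16 and 6314 counts and 120, 280 and 38 counts. A single library, 0%-Axitinib replicate 3, was far above all others, and the 3%-Axitinib samples lay between it and the other 0%-Axitinib samples. With all samples, log2FC was -3.08 (SE 2.10, adjusted p = 0.397, edgeR). Without that library it was 3.88 (SE 1.05, adjusted p = 0.0652, between 0.0652 and 0.968 over its alternatives), the groups did not overlap, and the criterion was met in the opposite direction. With limma-voom on all samples it was 0.19. No direction can therefore be given for Chil3.

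The library high in Chil3 was the one with the neutrophil markers. Retnlg, a resistin-like gene of neutrophils and a relative of Retnla, was at 1242 CPM there and between 1.04 and 4.83 CPM elsewhere, and Chil1, a relative of Chil3, was at 142 CPM there and at most 12.7 CPM elsewhere. In 3%-Axitinib replicates 1, 2 and 3, Chil3 was at 13.2, 25.5 and 2.20 CPM and the neutrophil markers summed to 195, 148 and 74.5 CPM. In 0%-Axitinib replicates 1 and 2, Chil3 was at 0.887 and 0.933 CPM and the sums were 83.8 and 93.4 CPM. The order of these samples was not the same for Chil3 and for the sums. Of the 9 tested neutrophil markers, 5 met the criterion as lower with all samples, while without 0%-Axitinib replicate 3 the counts were 1 lower (Ltf) and 1 higher (S100a8). The part of neutrophils in the Chil3 values was not tested. Chil4, the closest relative of Chil3, had 1 read in 1 sample.

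**Figure D2:**
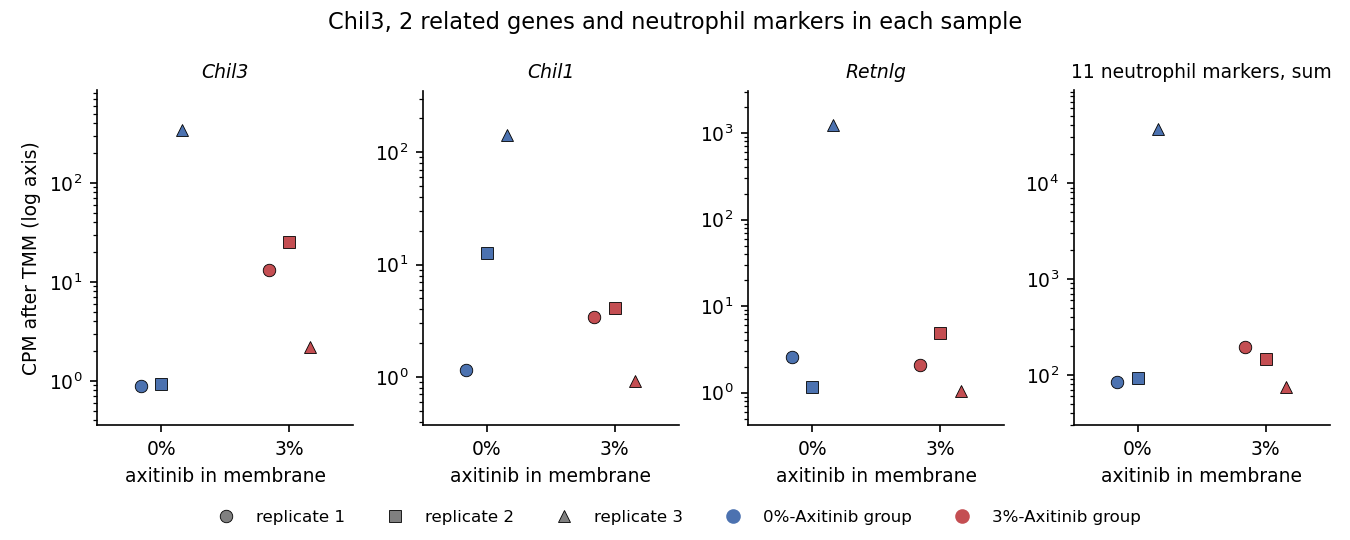
CPM after TMM normalization (log axes) of Chil3, its relative Chil1, the resistin-like gene Retnlg and the sum of 11 neutrophil markers in each sample, by the axitinib content of the membrane; symbols give the replicate and colours the group. In all 4 panels, 0%-Axitinib replicate 3 is the highest sample (343, 142, 1242 and 36950 CPM).

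Nos2 (chromosome 11, 78920787 to 78960254) encodes the inducible nitric oxide synthase of classically activated macrophages. It was low in all samples, at 4.59, 5.02 and 6.74 CPM in the 0%-Axitinib samples and at 8.80, 0.547 and 4.57 CPM in the 3%-Axitinib samples, from 88, 86 and 124 counts and 80, 6 and 79 counts. Both the highest and the lowest sample were in the 3%-Axitinib group. Nos2 had a log2FC of -0.24 (SE 0.80, adjusted p = 0.876, edgeR). Dropping 3%-Axitinib replicate 2 gave 0.29 and dropping 3%-Axitinib replicate 1 gave -1.05, so no direction can be given.

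**Figure D3:**
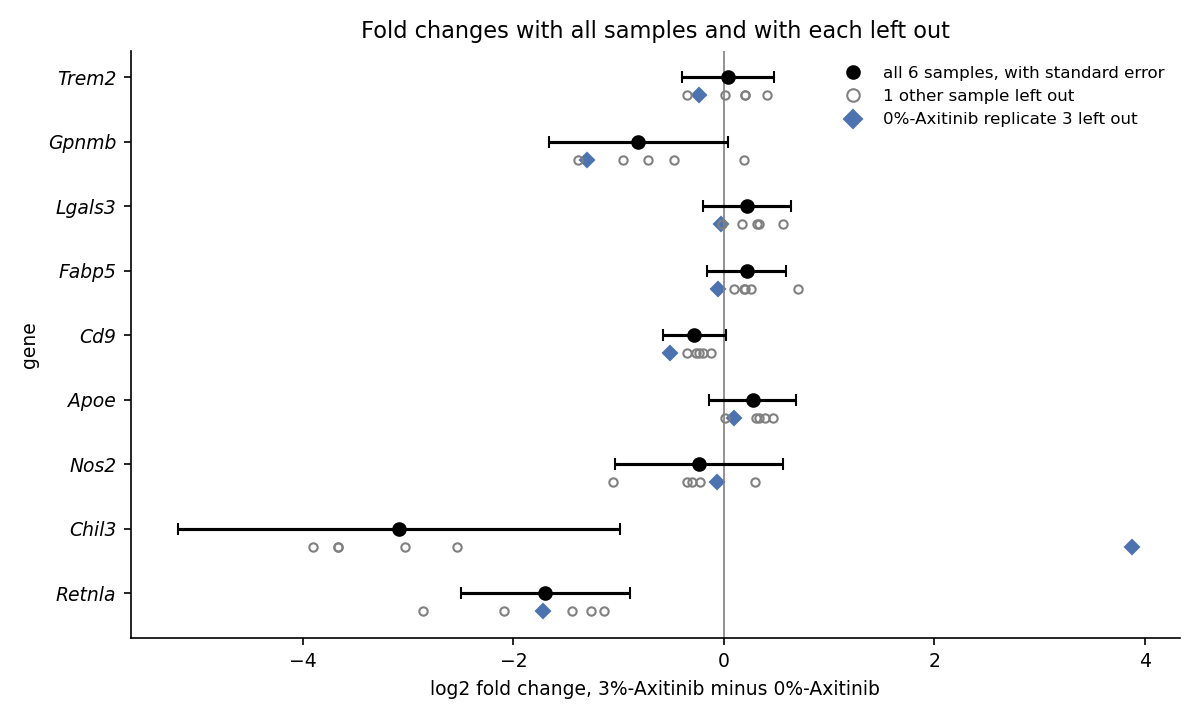
Log2FC of the 9 genes (3%-Axitinib minus 0%-Axitinib, edgeR) with all 6 samples (black, bars are the standard error (SE)) and with 1 sample left out (open circles; diamonds for 0%-Axitinib replicate 3). Chil3 moves from -3.08 to 3.88 without 0%-Axitinib replicate 3, and the values of Trem2, Gpnmb, Lgals3, Fabp5 and Nos2 lie on both sides of 0.

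The synthase made by Nos2 uses arginine, and 11 further genes of this metabolism were examined, of which 10 were tested. None of the 10 met the criterion in edgeR's test with all 6 samples, and their median log2FC was 0.28 (0.14 without 0%-Axitinib replicate 2). In the fits lacking 0%-Axitinib replicate 1 or 3%-Axitinib replicate 2, 1 of them was higher. Odc1, which turns ornithine into a precursor of polyamines, had a log2FC of -0.57 (SE 0.45, adjusted p = 0.470, edgeR), with 155 CPM in 0%-Axitinib replicate 3 and between 47.2 and 58.3 CPM elsewhere. Leaving out that library turned its direction, with a log2FC of 0.19. Slc7a2, the arginine transporter of activated macrophages, had a log2FC of 0.62 (SE 0.47, adjusted p = 0.443), and 0.28 without the same library. Otc, the urea cycle gene of liver, had no read in any sample. Odc1, Slc7a2 and Otc were chosen after their values were seen.

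Of 22 further genes of the alternative program, 21 were tested, with 1 higher (Il4ra) and 3 lower (Cd209a, Mgl2 and Pparg) by the criterion and a median log2FC of -0.11. The sign of this median was not stable (0.04 without 3%-Axitinib replicate 2, -0.24 without 0%-Axitinib replicate 3). Il4ra, the receptor chain shared by interleukin-4 and interleukin-13, was at 103, 76.8 and 63.5 CPM in the 0%-Axitinib samples and at 279, 187 and 120 CPM in the 3%-Axitinib samples. Its groups did not overlap. The log2FC of Il4ra was 1.27 (SE 0.35, adjusted p = 0.118, edgeR). The lectin gene Mgl2 was at 39.3, 15 and 46.3 CPM in the 0%-Axitinib samples and at 5.06, 2.37 and 5.15 CPM in the 3%-Axitinib samples, a log2FC of -2.99 (SE 0.52, adjusted p = 0.0965, between 1.88e-06 with DESeq2's Wald test and 0.28 without 3%-Axitinib replicate 1). Every 3%-Axitinib sample was below every 0%-Axitinib sample.

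Cd209a, a lectin of dendritic cells and some macrophages, had a log2FC of -3.16 (SE 0.80, adjusted p = 0.102, edgeR). Pparg, a lipid-sensing nuclear receptor of macrophages and adipocytes, was at 23.2, 41.9 and 24.6 CPM in the 0%-Axitinib samples and at 10.0, 11.3 and 12.6 CPM in the 3%-Axitinib samples, a log2FC of -1.40 (SE 0.29, adjusted p = 0.0965). The groups of both genes did not overlap, and Il4ra, Mgl2, Cd209a and Pparg met the criterion whichever 1 of the 6 samples was left out. Mgl2 and Cd209a are also genes of dendritic cells, and the 8 dendritic cell markers, which include Cd209a and are led by Cd74, summed to 1093, 1359 and 3300 CPM in the 0%-Axitinib samples and to 362, 189 and 443 CPM in the 3%-Axitinib samples. Their part in these genes was not tested. Mrc1, the mannose receptor, was at 330, 263 and 164 CPM in the 0%-Axitinib samples and at 233, 258 and 154 CPM in the 3%-Axitinib samples, with overlapping groups. Stat6 had a log2FC of -0.10 (SE 0.30), -0.33 without 0%-Axitinib replicate 3 and 0.07 without 0%-Axitinib replicate 2. Of the cytokine genes, Il4 was between 0.926 and 2.92 CPM (16 to 48 counts), and Il13 had at most 2 counts and was not tested. Mrc1, Stat6, Il4 and Il13 were chosen after their values were seen.

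Of 24 further genes of the classical program, 19 were tested, with 1 higher (Socs3) and 8 lower (Ifngr2, Irf1, Irf8, Tnf, Il1b, Cxcl9, Cxcl10 and Gch1) by the criterion and a median log2FC of -0.52. Cxcl9, a chemokine gene that interferon gamma induces in macrophages, was at 6.89, 17.0 and 97.3 CPM in the 0%-Axitinib samples and at 3.19, 0.456 and 1.04 CPM in the 3%-Axitinib samples. The groups did not overlap, and 0%-Axitinib replicate 3 was the highest sample. Its log2FC was -4.73 (SE 1.19, adjusted p = 0.102, edgeR), -2.97 without that library, and it met the criterion whichever 1 of the 6 samples was left out.

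Ifngr2, a chain of the interferon gamma receptor, was at 119, 130 and 146 CPM in the 0%-Axitinib samples and at 78.5, 63.7 and 81.9 CPM in the 3%-Axitinib samples. Its groups did not overlap, its log2FC was -0.82 (SE 0.19, adjusted p = 0.0986, edgeR), and it met the criterion whichever 1 of the 6 samples was left out. Irf1, a transcription factor induced by interferon, was at 55.3, 51.1 and 164 CPM in the 0%-Axitinib samples and at 32.8, 33.1 and 35.1 CPM in the 3%-Axitinib samples, a log2FC of -1.42 (SE 0.46, adjusted p = 0.142) that was -0.66 without 0%-Axitinib replicate 3. The groups of Irf1 did not overlap, and leaving out any 1 of the 3%-Axitinib samples took it out of the criterion. Cxcl10 (-3.55, SE 1.31, adjusted p = 0.171), Il1b (-2.10, SE 0.84, adjusted p = 0.193) and Tnf (-1.24, SE 0.48, adjusted p = 0.183) met the criterion as lower with all samples, but not without 0%-Axitinib replicate 3 or without 3%-Axitinib replicate 1 or 2, and Il1b and Tnf also not without 3%-Axitinib replicate 3. Leaving out 0%-Axitinib replicate 3, the highest sample for all 3 genes, gave log2FC values of -1.32, -0.98 and -0.71. The groups of Il1b overlapped. That library held the neutrophil markers and the highest sum of the dendritic cell markers, which was lower in every 3%-Axitinib sample than in any 0%-Axitinib sample, and the part of these cells in the list was not tested. Socs3, a feedback inhibitor of cytokine receptors, had overlapping groups and a log2FC of 1.47 (SE 0.47, adjusted p = 0.138) that did not meet the criterion without 0%-Axitinib replicate 2 or 3%-Axitinib replicate 1. With 0%-Axitinib replicate 3 left out, the lower genes of the list numbered 4 (Ifngr2, Irf1, Cxcl9 and, newly, Tlr4), and with 3%-Axitinib replicate 1 or 2 left out they numbered 3 (Ifngr2, Cxcl9 and, newly, Il12b). Ifng itself was at most 3.10 CPM in any sample.

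Relatives of the macrophage genes and the apolipoprotein gene Apod formed a list of 25, of which 17 were tested. By the criterion, 3 were higher (Fabp3, Apod and Lgals1) and 3 lower (Retnlg, Chil1 and Fabp4), with a median log2FC of -0.26. Leaving out 0%-Axitinib replicate 3 gave a median of 0.22 and leaving out 0%-Axitinib replicate 2 gave 0.0114, and the lower genes numbered 7 without 0%-Axitinib replicate 1 and 1 without 3%-Axitinib replicate 2 or 3. Fabp3, the fatty acid carrier of muscle, was at 2.09, 2.33 and 2.12 CPM in the 0%-Axitinib samples and at 65.7, 4.10 and 50.1 CPM in the 3%-Axitinib samples, a log2FC of 4.19 (SE 0.92, adjusted p = 0.0972 in edgeR and 6.17e-06 in DESeq2's Wald test). It was high in the libraries with the muscle markers, whose part was not tested. Apod, which encodes a lipid carrier of the lipocalin family, was at 631, 536 and 344 CPM in the 0%-Axitinib samples and at 2123, 1705 and 1566 CPM in the 3%-Axitinib samples, a log2FC of 1.84 (SE 0.34, adjusted p = 0.0965, between 4.14e-06 with DESeq2's Wald test and 0.28 without 3%-Axitinib replicate 1). Every 3%-Axitinib sample was far above every 0%-Axitinib sample, and Fabp3 and Apod met the criterion whichever 1 of the 6 samples was left out. Retnlg (-7.30, SE 2.69, adjusted p = 0.171) and Chil1 (-4.23, SE 1.58, adjusted p = 0.175) did not meet it without 0%-Axitinib replicate 3, where their log2FC values were 0.49 and -1.32, or when any 1 of the 3%-Axitinib samples was left out.

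The genes most like each of the 9 over the 6 samples were found by Pearson's r of log2 CPM among 9954 genes with a mean of at least 10 CPM. With 6 samples and so many genes, high values are reached easily, and they are given as a description. For the receptor Trem2 they were Ticam1 (r = 0.988) and Angel1 (0.986), for Apoe Cluh (0.988) and Agap3 (0.987), and for Fabp5 Scyl3 (0.995) and Csnk2a2 (0.990). Gpnmb was most like Ttll3 (0.997) and Pi4k2a (0.993), Lgals3 like Rpap1 (0.999) and the lysosomal protease gene Ctsd (0.998), and Cd9 like Cyfip1 (0.996) and Atp6v0c (0.990), which encodes a subunit of the proton pump of lysosomes. Retnla was most like Pacsin2 (0.975) and Dynll2 (0.965), Chil3 like Nop10 (0.998) and Znrf1 (0.994), and Nos2 like Med24 (0.975) and Usp10 (0.971).

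STAT6 binds palindromes in which 4 free bases part TTC from GAA. The RefSeq promoter windows (GRCm38.p6) of the polarization genes were searched for this pattern on both strands. Windows were found for 2 of the 3 genes, Retnla and Chil3; that of Nos2 was not analysed here. The windows are the 250 bases before the RefSeq start, which for Retnla lies downstream of the GENCODE start given above, so that the end of its window is within the gene as given there. Retnla held 1 match, 145 bases before the RefSeq start, and Chil3 held 0, where 5.85% of 32851 promoter windows of this length held at least 1. No other spacing was searched. The window of Chil3 holds ttcttagaa, in which TTC and GAA stand closer together. Whether these sequences bear on the values of the 2 genes was not tested. The window of Retnla, chr16:48842359-48842608 on the plus strand, is shown with the match in capitals. A match is a description of the sequence and not a measured site.
Retnla: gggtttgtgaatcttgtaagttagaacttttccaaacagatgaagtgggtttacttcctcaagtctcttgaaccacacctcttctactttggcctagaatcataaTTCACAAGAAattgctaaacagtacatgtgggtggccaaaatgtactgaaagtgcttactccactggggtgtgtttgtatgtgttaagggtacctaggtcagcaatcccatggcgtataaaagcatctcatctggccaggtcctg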

How the data were processed

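The authors deposited raw read counts per gene symbol. They had selected poly(A) RNA, filtered reads with fastp and aligned them to the mouse genome (mm10, GRCm38) with STAR (2.5.2b in the submitters' processing notes). The annotation and the strand setting are not given in the sources used here. The 4 lines for reads outside genes or not assigned were kept out of library sizes, and 21617 genes had no read in any sample. Between 42.2% and 80.9% of a library's reads were counted on genes.

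Counts were read into edgeR 4.0.16 (R 4.3.3). Genes were filtered with filterByExpr (minimum count 10, minimum total 15), which 15257 genes and all 9 macrophage genes passed, scaled by TMM and tested between the groups, without a block, with the quasi-likelihood test and Benjamini-Hochberg adjustment over all tested genes. The study's criterion, a fold change of at least 1.5 and a P-value of at most 0.05, was applied with the unadjusted p. Standard errors were taken from the log2 fold change and the test's F. CPM are after TMM, log2 CPM have a prior count of 2, and levels between genes were divided by the union of exons in GENCODE M21, where 91.0% of the symbols were found. The floor of 3 counts covers counting error only. Fits were tested on simulated counts.

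The 9 genes and all gene and marker lists were chosen with earlier results of these data known. Some genes of these lists are not reported here and were left out of the counts, medians and sums of the lists. Named genes were the 9, the genes of each program list that met the criterion with a mean of at least 1 CPM, in order of fold and at most 6 in each direction, the most abundant marker of each list and the 2 genes most like each of the 9. Others were chosen after their values were seen. The chondrocyte marker Cnmd was found under its older symbol, Lect1. Promoter windows were also searched for 2 forms of the hypoxia response core, which are not used here. Alternatives were DESeq2 1.42.0 (size factors, Wald test), limma-voom (limma 3.58.1), total counts, TMM without muscle genes, other filters, the replicate number as a block, and each sample left out. Figures were drawn with matplotlib 3.10.9.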

Additional observations from a re-analysis of the deposited data

How the results depend on the processing

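Cd9 and Apoe kept their direction under all 14 alternatives without meeting the criterion. Retnla was also lower under all 14 and met the criterion in some of them. When 1 sample at a time was dropped, the number of the 9 genes meeting the criterion lay between 0 and 1 (higher) and between 0 and 1 (lower). Of all tested genes, 6.65% to 14.5% were higher and 8.24% to 13.7% lower in these fits. Those of the 9 reaching an adjusted p of 0.05 or less stayed at 0. Those separated lay between 0 and 2 (above) and between 0 and 1 (below), where 17.1% to 26.5% of all tested genes were above and 18.5% to 27.3% below. The log2 fold change lay between -0.35 and 0.41 for Trem2, -1.39 and 0.19 for Gpnmb, -0.0263 and 0.57 for Lgals3, -0.0515 and 0.70 for Fabp5, -1.05 and 0.29 for Nos2, -3.90 and 3.88 for Chil3, -2.86 and -1.14 for Retnla, and -8.06 and 0.49 for the related gene Retnlg. Of the other alternatives, total counts reversed Trem2 (-0.0936). Retnla met the criterion with no filter (-1.71) and with DESeq2's Wald test (-1.71), so that 1 gene was lower there. Chil3 was 0.19 with limma-voom. The cause was not tested. Over all genes, 1 passed 0.05 after adjustment with edgeR, 1748 with DESeq2 (10.9% of those with an adjusted p), 15 with no filter, 2 with limma-voom, 1252 (7.98%) without 0%-Axitinib replicate 3 and 58 without 3%-Axitinib replicate 2.

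Samples with the same number did not deviate together more than others (Pearson's r of 0.182, -0.115 and -0.174). Samples with different numbers had values from -0.2205 to 0.2125. These values give no sign that the number pairs samples, but with 3 samples a group they cannot exclude it. With the replicate block, 0 of the 9 genes were higher and 1 lower (Retnla, -1.95). Chil3 was at 2.30 there, and over all genes 1249 were higher and 1354 lower. Nos2 could not be tested with at least 10 counts in every sample (6 counts in 3%-Axitinib replicate 2), and DESeq2 gave Chil3 no p. With 3 samples a group, exact permutation cannot go below 0.1.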

Other observations

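Marker lists of other cell types were counted in the same tissue. By the criterion, 8 of 8 endothelial cell markers were lower (median log2 fold change -1.46; 5 without 3%-Axitinib replicate 2, 6 with limma-voom or without any other sample except 0%-Axitinib replicate 2), and their sum was 684, 447 and 824 CPM in 0%-Axitinib replicates 1, 2 and 3 and 142, 217 and 256 CPM in 3%-Axitinib replicates 1, 2 and 3, Pecam1 being the most abundant. Of the mast cell markers, 6 of 6 were lower (5 without 0%-Axitinib replicate 3 or 3%-Axitinib replicate 1 or 2), with sums of 93.2, 124 and 181 CPM against 8.58, 6.56 and 40.4 CPM and Tpsb2 the most abundant, and of the dendritic cell markers 7 of 8. Of the 6 general leukocyte markers, 1 was lower (Ptprc), and their sum was 3083, 4422 and 3910 CPM in the 0%-Axitinib group and 1819, 1881 and 3199 CPM in the 3%-Axitinib group, led by Laptm5. Of the 17 macrophage markers, 2 were lower. The lists were not tested against each other.

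Of 8 tested chondrocyte markers, 5 were higher (Col2a1, Acan, Sox9, Col9a1 and Hapln1; 3 without 3%-Axitinib replicate 2), and their sum was 321, 205 and 228 CPM in the 0%-Axitinib group and 311, 1339 and 529 CPM in the 3%-Axitinib group, with Comp the most abundant. The fibroblast markers, with 2 of 10 higher (0 without 0%-Axitinib replicate 2 or 3 or 3%-Axitinib replicate 2 or 3), summed to 27822, 13814 and 11043 CPM and to 24255, 71648 and 27045 CPM, led by Col1a1. 3%-Axitinib replicate 2, the highest for both lists, was also the highest for Spp1 and the lowest for Retnla and Nos2. The constructs held rabbit cells, and reads were aligned to the mouse genome. The part of rabbit RNA in the chondrocyte and fibroblast values and in Spp1 was not tested. The Schwann cell markers, led by Mbp, summed to 1006, 236 and 166 CPM and to 1135, 1203 and 1035 CPM, with 0 of 5 higher by the criterion (4 without 0%-Axitinib replicate 1, 3 with limma-voom). The adipocyte markers, led by Cfd, summed to 276, 253 and 310 CPM and to 267, 57.3 and 117 CPM, with 1 of 9 tested lower (Lep). The lower adipocyte markers numbered 7 without 3%-Axitinib replicate 1 and 6 with limma-voom. The skeletal muscle markers had 7 of 9 tested higher (0 with limma-voom), the eosinophil markers 2 of 3 lower (0 without 3%-Axitinib replicate 3) and the keratinocyte markers 1 of 3 lower (0 without 0%-Axitinib replicate 2).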
